A study of Mus musculus with 6 samples.

Results

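The genes described here are 44 members of the interferon-γ (IFN-γ) response and of antigen presentation. They cover the IFN-γ receptor and its kinases, the transcription factors of the response, the guanylate-binding proteins (GBPs) and immunity-related GTPases (IRGs), the immunoproteasome, the peptide transport and loading machinery, and the MHC class I and class II genes. They were measured in primary osteoblasts from the long bones of 3 male wild-type C57BL6/J mice of 8 to 12 weeks, expanded to passage 2 to 3 and kept for 14 days in osteogenic medium. The cells of each mouse were then split: 1 culture received 100 ng/ml recombinant C5a, the anaphylatoxin released from complement component C5, for 4 h, and the other stayed unstimulated for 4 h in the same proliferation medium without C5a. Mice are called 2, 4 and 5, the numbers of the cultures, so that each group had n = 3 and the cultures were compared within each mouse. The study asked which transcripts of osteoblasts respond to C5a. No culture received IFN-γ, so the values describe the level at which these genes were expressed without added cytokine, and cells other than osteoblasts can remain in cultures grown out of bone chips.

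RNA was hybridised to Mouse Gene 1.0 ST arrays, 1 array per culture. Values are log2 signals after the robust multiarray average (RMA), so that a difference of 1 is a 2-fold difference, and levels of different genes are not compared because each probeset has its own response. Of the 44 members, 37 had a probeset that names no other gene and are called measured. Gbp2, Gbp6, Irgm2, Igtp, H2-K1, H2-D1 and H2-T23 lie only on probesets that name several genes and have no value here. The measured members were 7 of 11 GTPases and 14 of 17 genes of class I presentation, so that the classical class I heavy chains H2-K1 and H2-D1 are not among them. GBPs and IRGs are families of related genes, and whether their probes also detect a close paralogue was not tested.

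IFN-γ binds a receptor of a ligand-binding and a signalling chain, whose kinases JAK1 and JAK2 start a signal that acts on promoters through gamma-activated sites (GAS). Among the genes induced is IRF1, which binds interferon-stimulated response elements (ISRE), as do complexes that hold STAT2 and IRF9 after type I interferon. The induced GTPases coat and disrupt vacuoles that hold intracellular pathogens, while the immunoproteasome cuts proteins into peptides that the TAP transporter carries into the endoplasmic reticulum for loading onto MHC class I. Osteoblasts express MHC class I and respond to IFN-γ, whereas MHC class II belongs mainly to professional antigen-presenting cells.

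The promoters of some of the members show where letters of these elements lie. RefSeq (GRCm38.p6) windows of 250 bases before to 50 bases after the gene start were at hand for 31 of the 44 members, and both strands were searched for the letters GAAANNGAAA (ISRE core) and TTCNNNGAA (GAS core). The stretches of 120 bases before the start of Gbp7 (chr3:142530216-142530335, plus strand), Gbp3 (chr3:142559924-142560043, plus strand), Irgm1 (chr11:48871421-48871540, minus strand), Irf1 (chr11:53769894-53770013, plus strand) and Tap1 (chr17:34187436-34187555, plus strand) are shown because Gbp7, Irgm1, Irf1 and Tap1 passed the thresholds given below and Gbp3 had the largest difference of the members that did not pass. Iigp1, which also passed, had no window. Capitals mark every match to either motif:
Gbp7: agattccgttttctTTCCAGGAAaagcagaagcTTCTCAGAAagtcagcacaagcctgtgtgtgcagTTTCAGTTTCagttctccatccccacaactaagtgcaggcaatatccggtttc
Gbp3: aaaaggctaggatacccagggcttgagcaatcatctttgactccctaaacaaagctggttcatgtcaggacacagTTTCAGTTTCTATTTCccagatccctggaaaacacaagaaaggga
Irgm1: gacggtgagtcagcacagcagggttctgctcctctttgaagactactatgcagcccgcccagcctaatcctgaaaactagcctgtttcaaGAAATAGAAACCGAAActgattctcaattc
Irf1: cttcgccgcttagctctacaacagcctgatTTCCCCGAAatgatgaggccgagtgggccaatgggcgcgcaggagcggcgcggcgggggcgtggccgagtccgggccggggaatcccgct
Tap1: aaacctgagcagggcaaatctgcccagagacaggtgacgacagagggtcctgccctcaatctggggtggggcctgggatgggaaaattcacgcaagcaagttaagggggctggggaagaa

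Gbp7 held 2 GAS-type matches and, nearer the start, 1 ISRE-type match on the reverse strand. Gbp3 and Irgm1 each held 2 overlapping ISRE-type matches close to the start, and no GAS-type match. Irf1 held 1 GAS-type match and no ISRE-type match, and Tap1 held neither in its window, which overlaps that of Psmb9, read in the other direction, over 275 of 300 bases. All 7 GTPases with a window (Gbp2, Gbp3, Gbp5, Gbp7, Irgm1, Irgm2 and Igtp) held the ISRE letters and 4 of them the GAS letters, against 5 and 5 of the 24 other members. Of all 27025 mouse genes with a window, 3.99% held the ISRE letters and 9.55% the GAS letters (3.44% and 8.3% of the 32851 windows). These are matches of letters, not mapped binding sites. The 8 measured members with an ISRE-type match had a median change of -0.22 (log2) after C5a, from -1.26 to -0.08, and the 17 without had -0.16, from -0.88 to 0.45, so that both ranges overlapped widely. The 7 with a GAS-type match had -0.30, from -1.26 to -0.10, and the 18 without had -0.10, from -1.03 to 0.45, which overlapped as well.

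With C5a, 28 of the 37 measured members lay below their unstimulated level and 9 above it, and the median of their log2 fold changes was -0.20. Over all 19938 genes it was -0.01 and 52.1% were below 0. The threshold of an adjusted p below 0.05 (limma with the mouse as a block, Benjamini-Hochberg adjustment over all 35556 probesets) was passed by 4 probesets (0.0112%), none of which belonged to a member, and the lowest adjusted p of a member was 0.0878, for Tap1. Unadjusted p was below 0.05 for 7 members that were lower (Tap1, Irf1, Irgm1, Tapbpl, Gbp7, Irf8 and Iigp1), where 11.9% of all genes were, and for 2 that were higher (Jak1 and Jak2), where 8.26% were. By the thresholds of the study's methods, an unadjusted p below 0.05 and at least 1.5-fold, 5 of 37 members (13.5%) were lower, where 2.21% of all genes were, and 0 were higher, where 2.22% were. These were Gbp7, Irgm1, Iigp1, Tap1 and Irf1. The plot of all genes shows where the members lay.

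**Figure D1:**
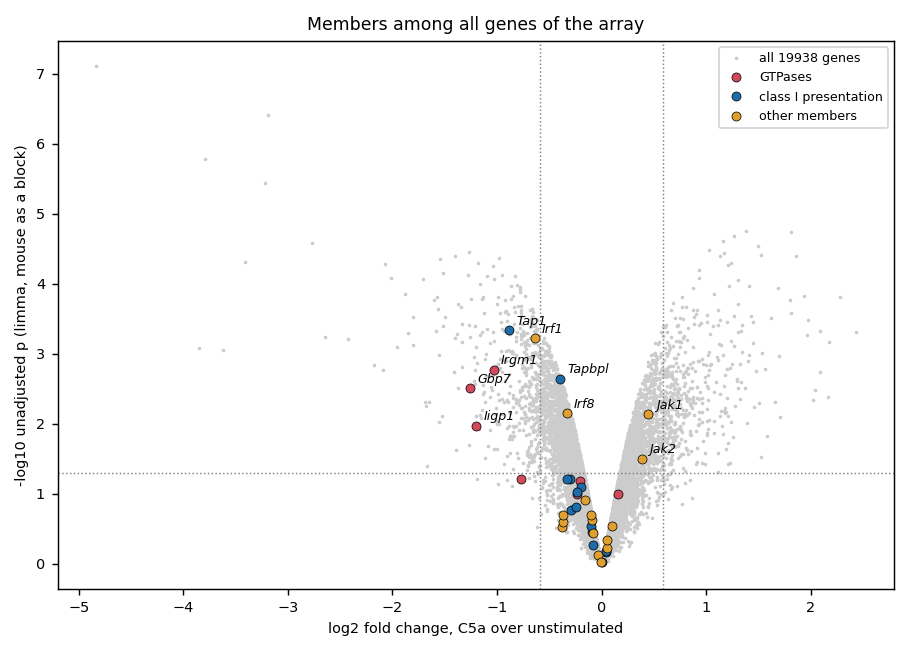
The log2 fold change (C5a over unstimulated) of each of 19938 genes is set against -log10 of its unadjusted p from limma with the mouse as a block. Grey points are all genes and coloured points the 37 measured members, and dotted lines mark both thresholds of the methods. The 5 members beyond both lines, Tap1, Irf1, Irgm1, Gbp7 and Iigp1, all lie on the lower side, and no member lies beyond both on the higher side.

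The adjusted p depended on which probesets were tested together. When the same fit was restricted to the 21789 probesets that name 1 gene, 795 of them (3.65%) passed the adjusted threshold, and 5 members were among these: Tap1 (0.026), Irf1 (0.0283), Irgm1 (0.038), Tapbpl (0.0461) and Gbp7 (0.0462). When it was restricted to the 21333 probesets above the 40th percentile of mean signal, 373 (1.75%) passed, with Tap1 (0.0383) and Irf1 (0.0445) among them and Irgm1 just outside at 0.0503. Over 9 alternatives of the limma fit the adjusted p ranged from 0.026 to 0.31 for Tap1, 0.0283 to 0.574 for Irf1, 0.038 to 0.367 for Irgm1, 0.0461 to 0.369 for Tapbpl and 0.0462 to 0.401 for Gbp7. Each difference is therefore given with its value in each mouse, and every adjusted p that follows is from limma over all probesets. The standard errors are those of limma with the mouse as a block.

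Consistency over mice was also compared with all genes. Of the 37 members 12 (32.4%) were lower with C5a in 3 of 3 mice, where 22.9% of all genes were, and 4 (10.8%) were higher in 3 of 3, where 19% were. All C5a arrays lay below all unstimulated arrays for 6 members, Gbp7, Irgm1, Tap1, Tapbpl, Gbp9 and Irf2 (16.2%, against 9.95% of all genes), and above them for 2, Jak2 and Gbp4 (8.67% of all genes). The members did not move alike in the 3 mice: 27 were below 0 in mouse 2, 27 in mouse 4 and 18 in mouse 5, and their medians were -0.19, -0.25 and 0.02.

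**Figure D2:**
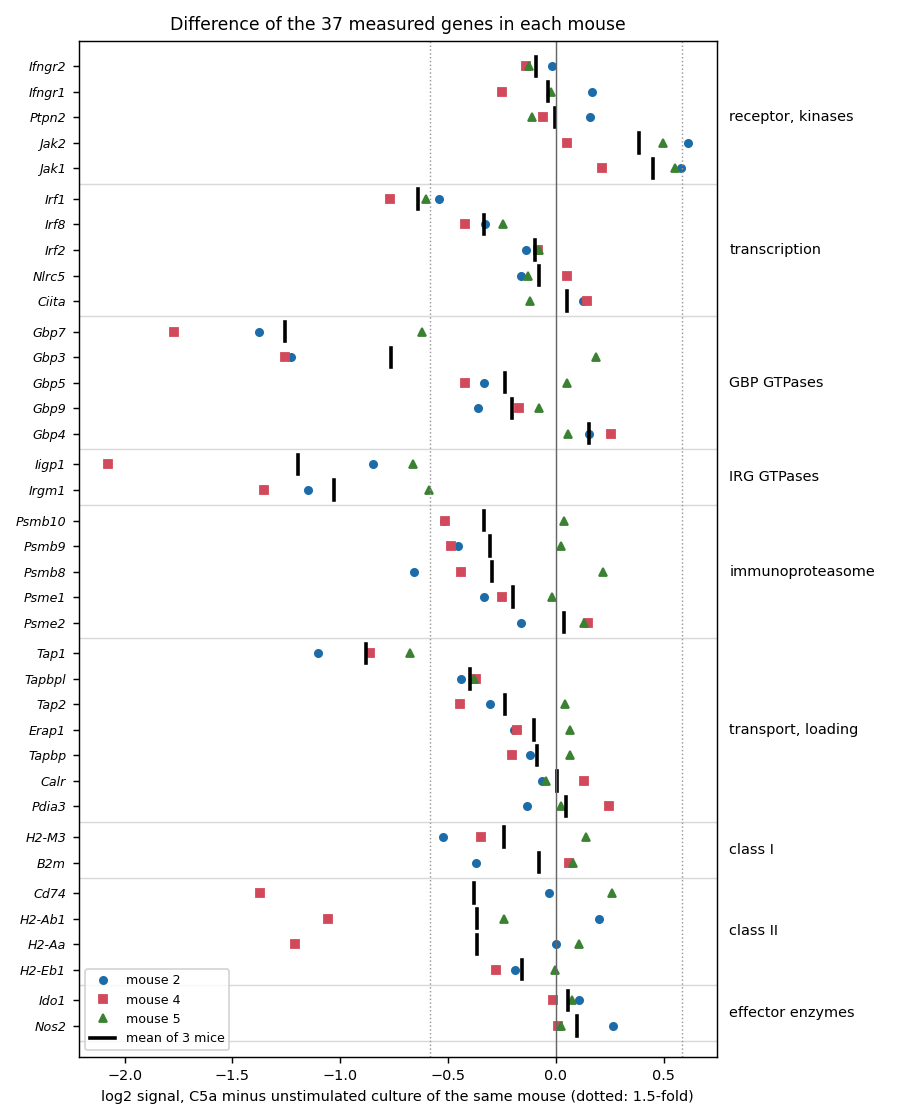
Each row is 1 measured member, grouped by role; symbols give the log2 signal of the C5a culture minus that of the unstimulated culture in mouse 2, 4 and 5, the black bar their mean, and the dotted lines 1.5-fold. Gbp7, Irgm1, Iigp1, Tap1 and Irf1 are below -0.5 in each mouse, the 3 catalytic immunoproteasome subunits are below 0 in mice 2 and 4 only, and 3 of the 4 class II genes are far below 0 in mouse 4 only.

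The receptor chains did not differ beyond their spread. Ifngr1, the ligand-binding chain, had log2 signals of 9.19, 9.01 and 8.99 with C5a in mice 2, 4 and 5, against 9.03, 9.26 and 9.01 unstimulated, and a log2 fold change of -0.04 ± 0.10 (SE, adjusted p = 0.935). Ifngr2, the signalling chain, had 10.75, 10.76 and 10.58 with C5a, against 10.77, 10.89 and 10.71 unstimulated, and -0.09 ± 0.07. Both chains were thus detected at nearly the same level in all 6 cultures. The kinases that bind them were higher with C5a in 3 of 3 mice, Jak1 by 0.45 ± 0.10 (adjusted p = 0.144) and Jak2 by 0.39 ± 0.13 (adjusted p = 0.251), each under the 1.5-fold threshold. Jak2 signals were 8.51, 8.32 and 8.75 with C5a, against 7.90, 8.27 and 8.25 unstimulated, so that the lowest C5a value exceeded the highest unstimulated value by little. Ptpn2, a phosphatase that dephosphorylates JAK1, lay at -0.01 ± 0.08.

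Among the transcription factors Irf1 stood out. Irf1, an activator induced by IFN-γ that drives many genes of this list, had log2 signals of 7.80, 7.08 and 6.85 with C5a in mice 2, 4 and 5, against 8.34, 7.85 and 7.45 unstimulated. The difference was nearly the same in each mouse, -0.54, -0.77 and -0.60, while the mice themselves spanned 0.92, so that both groups overlapped as groups and were separated only within mice. The log2 fold change was -0.64 ± 0.08 (1.56-fold lower, adjusted p = 0.0902). Without the mouse as a block limma gave Irf1 an unadjusted p of 0.0916 (adjusted p = 0.574), so that it no longer passed the methods' thresholds. Without mouse 4 the change was -0.57, just under 1.5-fold. A second, dimmer probeset of Irf1 lay at -0.04 ± 0.09.

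Irf8, a related factor of myeloid cells, was lower in 3 of 3 mice as well, by -0.33, -0.42 and -0.25 (adjusted p = 0.143), short of 1.5-fold. Irf2, which competes with IRF1 for the same sites, lay at -0.10 ± 0.07, and Ciita, the master activator of MHC class II genes, at 0.05 ± 0.09. The signals of Ciita lay below the array medians of 5.89 to 5.93 in every culture, so that a lack of change says little. Nlrc5, its counterpart for MHC class I genes, lay at -0.08 ± 0.08 on its brightest probeset. The gene has 19 probesets, and all 19 were below 0, from -0.72 to -0.06, with 8 of them lower in 3 of 3 mice. The probeset with the largest difference had signals of 5.81, 6.21 and 6.06 with C5a, against 6.40, 7.22 and 6.63 unstimulated (adjusted p = 0.106), and it was the 1 that passed the methods' thresholds. Probesets of 1 gene share the same RNA and are not separate evidence.

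The GTPases had the most negative median of the groups. Of the 7 measured, 6 lay below 0, as did 52.1% of all genes, and 3 were lower by the methods' thresholds (42.9%, against 2.21% of all genes), and the median of the 7 log2 fold changes was -0.77. By mouse the medians were -0.85, -1.26 and -0.08. The median was -1.24 without mouse 5, -0.54 without mouse 2 and -0.52 without mouse 4, so that its size rested on which mice were included. It also rested on pooling the families: the 5 measured GBPs alone had a median of -0.23 and the 2 measured IRGs -1.11. The 4 class II genes had -0.37.

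The GBPs are described by their place in the genome. Gbp2, Gbp3, Gbp5 and Gbp7 are neighbours on chromosome 3, and Gbp4, Gbp6 and Gbp9 lie together on chromosome 5. Gbp7, which in mice takes part in the oxidative killing of bacteria, had log2 signals of 7.69, 7.36 and 7.81 with C5a in mice 2, 4 and 5, against 9.06, 9.13 and 8.43 unstimulated. The C5a arrays were all below the unstimulated arrays, by -1.38, -1.77 and -0.62, and the fold change of 2.39 (-1.26 ± 0.23, adjusted p = 0.117) was the largest of the members. Gbp3 had 8.21, 7.73 and 8.22 with C5a, against 9.44, 8.98 and 8.03 unstimulated. It was lower by more than 2-fold in mice 2 and 4 (-1.23 and -1.26) and not in mouse 5 (0.18), which gave -0.77 ± 0.31 (adjusted p = 0.342). Without mouse 5 the value was -1.24, past the methods' thresholds. With all 3 mice it also passed them in both restricted limma fits. Its unadjusted p was 0.0454 above the 40th percentile and 0.0440 among probesets naming 1 gene. The unstimulated level of mouse 5 was itself the lowest, and its C5a level was like that of mouse 2.

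Gbp5, a GBP linked to inflammasome assembly, had 6.50, 4.95 and 5.09 with C5a, against 6.84, 5.37 and 5.04 unstimulated, and differed more between mouse 2 and the others (1.60 over the mouse means) than with C5a (-0.23 ± 0.12). The 2 measured genes on chromosome 5 differed by less than 1.5-fold. Gbp9 was lower in 3 of 3 mice by about as much as Gbp5 on average, and had 5.63, 5.94 and 5.91 with C5a, against 5.99, 6.12 and 5.99 unstimulated (-0.20 ± 0.09, adjusted p = 0.353). Gbp4 was the 1 GTPase above 0, in 3 of 3 mice, with 6.01, 5.92 and 5.88 with C5a, against 5.85, 5.66 and 5.83 unstimulated (0.15 ± 0.08, adjusted p = 0.436). The difference between the chromosomes was not tested, and signals near 6 are close to the array medians of 5.89 to 5.93.

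Both measured IRGs were lower in 3 of 3 mice. Irgm1, a regulatory IRG that keeps the effector IRGs off the cell's own membranes, had log2 signals of 7.70, 7.83 and 7.50 with C5a in mice 2, 4 and 5, against 8.84, 9.19 and 8.08 unstimulated. Its arrays did not overlap between groups, and its fold change of 2.04 (-1.03 ± 0.16, adjusted p = 0.106) passed the methods' thresholds under 13 of 13 alternatives. Iigp1 (Irga6), an effector IRG that oligomerises on pathogen vacuoles, had 5.53, 4.88 and 4.75 with C5a, against 6.37, 6.96 and 5.41 unstimulated. Its C5a values and the unstimulated value of mouse 5 lay below the array medians of 5.89 to 5.93, so that the size of its differences is less certain. The C5a value of mouse 2 was above the unstimulated value of mouse 5, so that the groups overlapped, while each mouse was lower, by -0.85, -2.08 and -0.66 (-1.20 ± 0.30, adjusted p = 0.163). It passed under 11 of 13 alternatives and Gbp7 under 12 of 13, the exceptions being per-gene t tests.

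**Figure D3:**
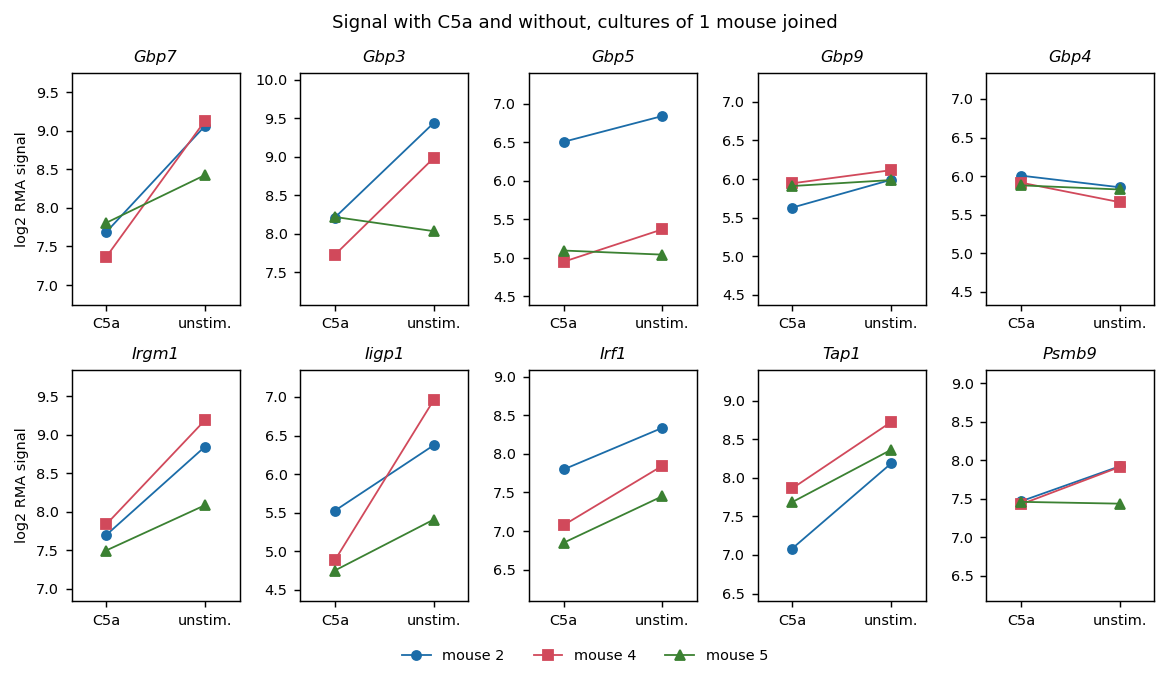
Log2 RMA signal of the 7 measured GTPases and of Irf1, Tap1 and Psmb9 in the C5a and the unstimulated culture of each mouse, joined by a line; every panel spans 3 log2 units. The lines of Gbp7, Irgm1, Iigp1, Irf1 and Tap1 run lower at C5a in all 3 mice, whereas the line of mouse 5 is nearly flat for Gbp3, Gbp5 and Psmb9. Both Gbp5 signals of mouse 5 are below the array medians.

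Class I presentation had a median of -0.22 over the log2 fold changes of its 14 measured genes, with 11 below 0 and 1, Tap1, past the methods' thresholds (7.14%, against 2.21% of all genes). By mouse the medians were -0.35, -0.30 and 0.04. In mouse 2 all 14 lay below 0, in mouse 4 10 and in mouse 5 4.

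Psmb8, Psmb9 and Psmb10, the catalytic subunits that replace their constitutive counterparts in the immunoproteasome, lay at -0.30, -0.31 and -0.33. Psmb8 had 8.00, 7.91 and 7.32 with C5a in mice 2, 4 and 5, against 8.66, 8.35 and 7.10 unstimulated (adjusted p = 0.553). Psmb9 had 7.47, 7.43 and 7.46 with C5a, against 7.92, 7.91 and 7.44 unstimulated (adjusted p = 0.342). All 3 subunits were thus lower in mice 2 and 4, by 0.44 or more, and above the unstimulated level in mouse 5. Of the genes of the proteasome activator, Psme1 lay at -0.20 ± 0.09 and Psme2 at 0.04 ± 0.09. The constitutive subunits Psmb5, Psmb6 and Psmb7 lay at 0.13, -0.05 and 0.07, none with an unadjusted p below 0.05.

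Tap1, a subunit of the TAP peptide transporter, was the 1 gene of class I presentation that differed alike in each mouse and by more than 1.5-fold. Its log2 signals were 7.08, 7.86 and 7.69 with C5a in mice 2, 4 and 5, against 8.19, 8.72 and 8.36 unstimulated. The groups did not overlap, and the differences of -1.10, -0.86 and -0.68 gave -0.88 ± 0.10 (1.84-fold lower, adjusted p = 0.0878), past the methods' thresholds under 13 of 13 alternatives. Psmb9, whose start faces that of Tap1, was lower in mice 2 and 4 by about the same amount as Psmb10, and differed by 0.02 in mouse 5, where Tap1 differed by -0.68. Whether the 2 neighbours differ in their response was not tested. Tap2, the other subunit of the transporter, lay at -0.24 ± 0.11, with -0.31 and -0.45 in mice 2 and 4 and 0.04 in mouse 5.

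Tapbpl (TAPBPR), a peptide editor of class I molecules, was lower by a similar amount in each mouse, -0.44, -0.37 and -0.38, with all C5a arrays below all unstimulated arrays (-0.40 ± 0.07, adjusted p = 0.112), short of 1.5-fold. Tapbp (tapasin), which bridges TAP and the class I molecule, lay at -0.09, and Erap1, which trims peptides in the endoplasmic reticulum, at -0.10. Calr and Pdia3, chaperones of the loading complex that also fold other glycoproteins, lay at 0.01 and 0.05. B2m, the light chain of every class I molecule, had signals of 12.66, 12.99 and 12.77 with C5a, against 13.03, 12.93 and 12.69 unstimulated (-0.08 ± 0.12, adjusted p = 0.852), lower in mouse 2 only. H2-M3, a class Ib molecule that presents formylated peptides, lay at -0.24 ± 0.14.

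The 4 MHC class II genes lay below 0, the median of their log2 fold changes being -0.37, and this rested on mouse 4: without it the median was 0.02. Cd74, the invariant chain, had log2 signals of 6.18, 7.20 and 5.50 with C5a in mice 2, 4 and 5, against 6.22, 8.58 and 5.23 unstimulated (-0.38 ± 0.33, adjusted p = 0.699). H2-Aa, a class II α chain, had 4.53, 5.24 and 4.57 with C5a, against 4.53, 6.45 and 4.46 unstimulated (-0.37 ± 0.28). Mouse 4 was highest in both groups for both genes, and its C5a culture differed by -1.37 and -1.21, while mice 2 and 5 differed by -0.03 and 0.26 for Cd74. H2-Ab1 was also highest in mouse 4 and lay at -0.37 ± 0.25, and H2-Eb1 lay at -0.16 ± 0.08. Signals of H2-Aa and H2-Ab1 in mice 2 and 5, and of Cd74 in mouse 5, lay below the array medians. A lack of decrease there therefore says little. Itgax, a marker of dendritic cells and some macrophages, was likewise highest in mouse 4, with 7.80 in the C5a and 8.34 in the unstimulated culture. The other 5 dendritic cell markers, all measured, differed little between mice and lay between 5.03 and 6.13 in every culture. The enzymes that IFN-γ induces in macrophages, Ido1 and Nos2, lay at 0.06 and 0.10, with signals below the array medians in every culture.

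Macrophage transcripts differed between the cultures as well. Of 17 macrophage markers 16 were measured, and their summed linear signal was 20512, 25568 and 1762 with C5a in mice 2, 4 and 5, against 26757, 33690 and 1556 unstimulated. All 16 were lower with C5a in mice 2 and 4, with median differences of -0.36 and -0.48, and 4 of 16 were lower in mouse 5, with a median of 0.17. These 4 were Mrc1, Ptprc, Cd53 and Adgre1, at -0.45, -0.31, -0.28 and -0.15 in mouse 5. Their signals in mouse 5 were below the array medians, except the unstimulated value of Mrc1 (5.98), so that these differences are less certain. Mrc1 (-0.62 ± 0.11, adjusted p = 0.114) was the 1 marker of 16 lower by the methods' thresholds (6.25%, against 2.21% of all genes). Lyz2 (lysozyme) had 12.71, 12.97 and 9.09 with C5a, against 13.08, 13.14 and 8.93 unstimulated, so that the cultures of mouse 5 held far less macrophage RNA. A bulk signal cannot tell fewer cells of a type from less RNA per cell. Of the 37 members 10 (27%, against 8.27% of all genes) were lower in mice 2 and 4 and higher in mouse 5. These were Gbp3, Gbp5, the 3 catalytic immunoproteasome subunits, Tap2, Tapbp, Erap1, H2-M3 and Cd74. In mouse 5 Psmb9, Psmb10, Tap2, Gbp5, Tapbp and Erap1 were higher by only 0.02 to 0.07, each less than the standard error of its fold change. Gbp3, Psmb8, H2-M3 and Cd74 were higher by 0.14 to 0.26. Gbp7, Irgm1, Iigp1, Irf1 and Tap1 differed by -0.62, -0.59, -0.66, -0.60 and -0.68 in mouse 5, where both signals of Iigp1 were below the array medians. The part of macrophage RNA in the differences of any member was not tested.

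**Figure D4:**
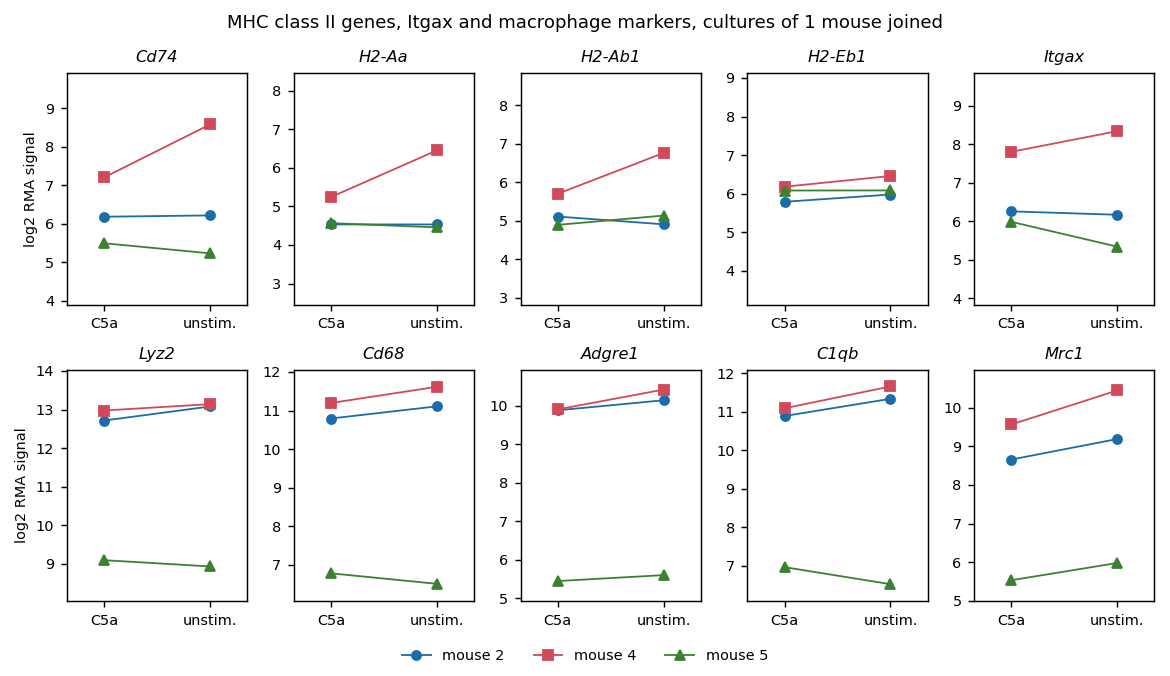
Log2 RMA signal of the 4 class II genes, of Itgax and of 5 macrophage markers in the C5a and the unstimulated culture of each mouse, joined by a line; every panel spans 6 log2 units. Mouse 4 is highest for Cd74, H2-Aa, H2-Ab1 and Itgax, and mouse 5 is 3 or more log2 units below the other mice for Lyz2, Cd68, Adgre1, C1qb and Mrc1.

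Markers of other cell types were checked as well. The 9 measured of 13 osteoblast markers included Sparc, Col1a2 and Col1a1, each at 13.3 or more in all 6 cultures, whereas Ibsp (bone sialoprotein), a marker of mature osteoblasts, was 11.26, 12.62 and 7.02 with C5a and 11.75, 12.88 and 7.56 unstimulated. The cultures of mouse 5 therefore differed in this marker too. Of the 9, 5 (55.6%) were lower with C5a in 3 of 3 mice and 0 higher, against 22.9% and 19% of all genes. None passed the methods' thresholds, which 2.21% of all genes passed as lower and 2.22% as higher. The median log2 fold change of the 9 was -0.05. Ibsp and Phex lay at -0.43 ± 0.09 and -0.42 ± 0.14, and Sp7 and Dmp1 at 0.08 ± 0.19 and 0.16 ± 0.20. The 8 osteoclast markers, all measured, had a median of 0.03, with 4 below 0 and 4 above. Of these, 3 (37.5%), Ocstamp, Dcstamp and Calcr, were higher with C5a in 3 of 3 mice and 0 lower, against 19% and 22.9% of all genes. Signals of Dcstamp and Calcr were below the array medians in every culture. Atp6v0d2 differed by -0.64, -0.43 and 0.43 in mice 2, 4 and 5. The part of these cell types in the differences of the members was not tested. Markers of lymphocytes (8 of 9 measured) stayed between 4.08 and 6.18, and those of endothelium (8 of 8) between 4.48 and 6.54, in every culture.

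Other genes of the pathway were taken from lists of 79 genes, of which 61 were measured. By the methods' thresholds 4 of 61 (6.56%) were lower and 0 higher, against 2.21% and 2.22% of all genes. Of these, 3 act in interferon signalling, where 17 of 18 listed genes were measured. Irf9 and Stat2, parts of a complex that binds ISREs after type I interferon, were lower in 3 of 3 mice. Irf9 had 7.95, 7.58 and 7.31 with C5a in mice 2, 4 and 5, against 8.68, 8.67 and 8.19 unstimulated (-0.90 ± 0.09, adjusted p = 0.0867). Stat2 had 8.22, 7.96 and 7.77 with C5a, against 8.44, 9.31 and 8.69 unstimulated (-0.83 ± 0.22, adjusted p = 0.181). The arrays of the groups did not overlap for either gene. Of the 17 measured, 7 (41.2%) were lower in 3 of 3 mice and 1 (5.88%) higher, against 22.9% and 19% of all genes. All C5a arrays lay below all unstimulated arrays for 5 (29.4%, against 9.95% of all genes) and above them for 1 (8.67% of all genes).

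Socs3, an inhibitor of JAK signalling through cytokine receptors, had the largest difference of all listed genes, with 9.07, 8.11 and 8.34 with C5a, against 9.92, 9.65 and 9.95 unstimulated (-1.33 ± 0.17, adjusted p = 0.0919). These values are from the brighter of its 2 probesets, and the other is not given here. Socs1, the main feedback inhibitor of the IFN-γ receptor, lay at -0.21 ± 0.08 and did not reach 1.5-fold. Gm4951, an IRG-like gene, was lower too (-0.88 ± 0.20, adjusted p = 0.143). It was the 1 of 10 measured further GTPases to pass. The median of these 10 was -0.07, with 7 below 0 and 3 above. Cxcl9 and Cxcl10, chemokines that IFN-γ induces, lay at 0.01 ± 0.12 and -0.10 ± 0.36. Cxcl10 differed in opposite directions in mice 2 and 4, with 7.29, 6.21 and 5.75 with C5a, against 6.48, 7.28 and 5.78 unstimulated. None of the 23 measured further genes of the class I pathway and none of the 11 of the class II pathway passed, with medians of 0.03 and -0.03.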

How the data were processed

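Values were the deposited log2 signals of 6 arrays (3 C5a, 3 unstimulated), which the authors made with Affymetrix Expression Console and BRB-ArrayTools by RMA (versions and build not given in the sources used here), a method that makes the distributions of the arrays alike. Array medians were 5.89 to 5.93, and the number of arrays limits the precision. Of 35556 probesets, 21789 name 1 gene, 1621 several and 12146 none in the platform annotation. A gene took the probeset with the highest mean among those naming it alone (19938 genes, 999 with more than 1). All 37 measured members kept their symbol in RefSeq by Entrez ID.

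The fit was limma 3.58.1 (R 4.3.3), mouse plus treatment, two-sided, with Benjamini-Hochberg adjustment over all probesets. The labels state that cells of 1 mouse were split. After removal of group means, arrays of 1 mouse correlated at 0.495 to 0.684 and arrays of different mice at -0.446 to -0.0353. The deviations within a group then sum to 0, so that positive values within a mouse force negative ones between mice. The methods' thresholds, whose fold sign was read as at least 1.5, came from a t test, run as an alternative. The fit was tested on simulated data. Every measured member is named; arrays are given singly for GTPases, members past the thresholds and a set list, and those of Nlrc5, Jak2, markers and other pathway genes were added after their values were seen. Members and lists were chosen with earlier results of these data known. Promoter windows came from RefSeq (GRCm38.p6). A result on an item withheld here is not reported.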

Additional observations from a re-analysis of the deposited data

How the results depend on the processing

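The 13 alternatives for the members kept Irgm1 and Tap1 past the methods' thresholds throughout, with log2 fold changes from -1.25 to -0.87 and from -0.98 to -0.77. With no replicate block 4 members were lower, Irf1 being lost, and 5 probesets passed the adjusted threshold. Restricting the fit gave 373 probesets and 2 members past the adjusted threshold above the 40th percentile, and 795 and 5 among probesets naming 1 gene. In both restricted fits 6 members were lower by the methods' thresholds, Gbp3 being added. These fits test fewer probesets and estimate the common variance from them. Leaving out 1 mouse gave 0 to 3 such probesets, and 409 (without mouse 2) to 1009 (without mouse 4) higher by the methods' thresholds, against 608. The methods' t test gave 291 lower, 374 higher and 3 lower members, losing Irf1 and Iigp1. A plain paired t test gave 291 lower, 226 higher, 3 lower members (Gbp7 and Iigp1 lost) and 2 lower genes of the other pathway lists. The mean of all probesets took Irf1 to -0.34, and without mouse 4 Irf1 was -0.57.

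Reversals touched only values near 0 or the class II genes. Ptpn2 was 0.018 after quantile normalization, 0.044 on its other probeset and 0.019 as a mean of both, and Calr was -6.45e-05 after centring each array and -0.020 after quantile normalization. Leaving out 1 mouse gave ranges of -0.157 to 0.070 for B2m, -0.135 to 0.072 for Ifngr1, -0.086 to 0.047 for Ptpn2, -0.016 to 0.140 for Psme2, -0.056 to 0.041 for Calr, -0.055 to 0.136 for Pdia3, -0.704 to 0.114 for Cd74 and -0.604 to 0.055 for H2-Aa.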
